A study of Mus musculus with 8 samples.

Results

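Il4, Il13, Rad50 and Il5 are neighbouring genes on mouse chromosome 11 that together form the type 2 cytokine locus. They were taken by symbol from a table of gene expression, in which each of the 4 genes had 1 line among 11841 gene symbols. RNA had been sequenced from CD44+ CD4+ T cells, which are helper T cells that have met antigen, of the lymph nodes that drain the skin of BALB/cAJcl mice. All cells had been treated with PMA and ionomycin for 2 h, which bypasses the T cell receptor and brings out the cytokines a cell is ready to make. The 4 genotypes were T-bet-/- STAT6-/- (called double-null here), STAT6-/- (STAT6-null), T-bet-/- (T-bet-null) and wildtype (WT), each with 2 libraries, 8 in all. The sources used here do not give the exons removed by the null alleles, the age or number of the mice, or whether both libraries of a genotype were made from different animals. The p-values therefore measure only the spread between these libraries, which may be technical.

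IL-4 is the cytokine that induces T helper 2 (Th2) cells and directs B cells towards IgE. IL-13 acts on epithelial cells, where it drives mucus production and weakens the skin barrier, and IL-5 is the growth and survival factor of eosinophils. Binding of IL-4 or IL-13 to IL-4 receptor alpha activates STAT6, which in Th2 cells raises Gata3, and GATA3 then opens the locus. T-bet, encoded by Tbx21, drives the Th1 programme and restrains GATA3 and the Th2 cytokines. Rad50 encodes a subunit of the MRE11 complex, which senses DNA double-strand breaks, and has no known cytokine function. It lies between Il13 and Il5, and in the mouse its introns near the end of the gene hold the Th2 locus control region, a set of regulatory sites that acts on the cytokine genes on both sides.

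In mm10, which is drawn from assembly GRCm38, Il4 occupies chr11:53612460-53618665, Il13 chr11:53631323-53634702, Rad50 chr11:53649519-53707319 and Il5 chr11:53720794-53725103. The first 3 are on the minus strand and Il5 is on the plus strand. The 4 gene bodies do not overlap, are separated by gaps of 12.7, 14.8 and 13.5 kb, and together span 112.6 kb. The 250 bases before the annotated start of each cytokine gene, from RefSeq on GRCm38.p6, are shown because the 3 genes share a neighbourhood and yet differed in their response to the loss of T-bet or STAT6. Each sequence runs 5′ to 3′ on the strand of its gene. Capitals mark the core letters bound by NFAT (GGAAA, or TTTCC on the other strand), the letters bound by GATA factors (GATA preceded by A or T and followed by A or G, on either strand) and the T-box core (AGGTGT on either strand), which T-bet can bind.
Il4 (chr11:53618666-53618915, minus strand): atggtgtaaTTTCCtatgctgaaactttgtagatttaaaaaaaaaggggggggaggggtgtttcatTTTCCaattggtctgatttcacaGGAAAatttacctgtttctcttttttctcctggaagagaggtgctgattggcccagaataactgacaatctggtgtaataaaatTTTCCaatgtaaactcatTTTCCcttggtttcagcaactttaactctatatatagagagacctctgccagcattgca
Il13 (chr11:53634703-53634952, minus strand): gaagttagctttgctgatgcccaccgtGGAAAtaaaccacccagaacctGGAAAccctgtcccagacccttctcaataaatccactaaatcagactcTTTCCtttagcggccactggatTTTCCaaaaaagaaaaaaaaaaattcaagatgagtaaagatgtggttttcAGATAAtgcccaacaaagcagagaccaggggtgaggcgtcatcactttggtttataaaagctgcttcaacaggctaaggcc
Il5 (chr11:53720544-53720793, plus strand): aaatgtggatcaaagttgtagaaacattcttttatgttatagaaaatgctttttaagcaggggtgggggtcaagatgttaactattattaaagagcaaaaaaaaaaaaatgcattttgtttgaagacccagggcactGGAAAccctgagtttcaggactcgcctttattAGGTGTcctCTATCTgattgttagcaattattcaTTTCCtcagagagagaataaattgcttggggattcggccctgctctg
RefSeq lists a second Il4 start, and the window shown is that of the start at the edge of the gene body. The Il4 window shown held 5 NFAT cores and no GATA match, the Il13 window 4 NFAT cores and 1 GATA match 81 bases before the start, and the Il5 window 2 NFAT cores and 1 GATA match 72 bases before the start. The Il5 window held the T-box letters 81 bases before the start, and the other 2 windows did not. The Il4 window also held the STAT6 spacing, TTC and GAA separated by 4 bases, as TTCACAGGAA, 167 bases before the start, which overlaps an NFAT core. TGCTGA, a core of the MAF recognition element, occurred 3 times in the Il4 window, once in the Il13 window and not in the Il5 window. The window before the second Il4 start (chr11:53617339-53617588), inside the gene body, held 1 GATA match 80 bases before that start and none of the other motifs. Neither the AP-1 letters TGANTCA nor the STAT5 spacing TTCNNNGAA matched in the 3 windows shown. Among the 32851 mouse windows of this length, 55.6% held an NFAT core, 26.5% a GATA match, 11.8% the T-box letters, 16.1% TGCTGA, 7.02% the STAT5 spacing, 6.75% the AP-1 letters and 5.85% the STAT6 spacing. A match is a description of the letters and not evidence of binding.

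Values are FPKM, fragment counts scaled by transcript length and by the mapped total of each library, so levels can be set side by side between genes. Depth was approximately 20450000 fragments in the first WT library, and the other libraries had 0.855 to 1.04 times that depth. Tbx21 stood at 2.49 and 2.09 FPKM in double-null, 102 and 92.1 FPKM in STAT6-null, 1.44 and 1.54 FPKM in T-bet-null and 30.8 and 31.6 FPKM in WT libraries. Stat6 stood at 29.6 and 26.9 FPKM in double-null, 31.6 and 29.0 FPKM in STAT6-null, 88.8 and 89.8 FPKM in T-bet-null and 89.9 and 90.9 FPKM in WT libraries, so the labels and the targeted transcripts match in all 8 libraries. Across all genes, the Pearson correlation of log2(FPKM + 1) was 0.949 to 0.964 between a WT and a mutant library and 0.986 to 0.991 between mutant genotypes, so the WT libraries stood apart. Summed erythroid markers (2 of 8 listed, Hba-a1 and Beta-s) were 2.63 to 7.48 FPKM in the 6 mutant libraries and 442 and 224 FPKM in the WT libraries. T cell markers (6 of 7 listed, Cd4 and the CD3 chains among them) summed to 1360 to 1863 FPKM in every library. The single markers set WT apart, with Cd4, Cd3d, Cd3e, Cd3g and Lck higher in both WT libraries than in every mutant library. Cd4 was 195 and 208 FPKM in WT and 88.1 to 127 FPKM in mutant libraries. Cd44 went the other way, at 251 and 282 FPKM in WT and 355 to 442 FPKM in mutant libraries. In bulk RNA, fewer cells that express a gene and less RNA per cell cannot be told apart.

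Il4 was most abundant in T-bet-null cells and least abundant in WT cells. Its level was 747 and 711 FPKM in double-null, 1238 and 1275 FPKM in STAT6-null, 2079 and 2048 FPKM in T-bet-null and 183 and 117 FPKM in WT libraries. No library of 1 genotype overlapped another, and the WT pair was the most widely spaced, with replicate 1 0.64 above replicate 2 on the log2(FPKM + 1) scale. By mean FPKM, Il4 ranked 116 of 11841 symbols in double-null, 51 in STAT6-null, 13 in T-bet-null and 468 in WT cells.

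Il13 took the same order of genotypes as Il4. It stood at 619 and 525 FPKM in double-null, 865 and 775 FPKM in STAT6-null, 1556 and 1522 FPKM in T-bet-null and 271 and 248 FPKM in WT libraries, with no overlap between genotypes. In WT cells the Il13 level was above that of Il4 in both libraries, whereas in all 6 mutant libraries it was below. Il13 ranked 151 in double-null, 94 in STAT6-null, 32 in T-bet-null and 284 in WT cells.

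Il5 was the least abundant of the 3 cytokine transcripts in all 8 libraries, and its order of genotypes was different. It stood at 54.0 and 54.6 FPKM in double-null, 31.7 and 23.4 FPKM in STAT6-null, 272 and 286 FPKM in T-bet-null and 32.1 and 21.0 FPKM in WT libraries. The STAT6-null and WT values overlapped, while the T-bet-null and double-null pairs lay above both. Il5 ranked 1305 in double-null, 2363 in STAT6-null, 253 in T-bet-null and 2313 in WT cells. These levels rest on approximately 686 to 8630 fragments per library.

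Rad50 was expressed at a low and narrow range of levels. It stood at 3.36 and 3.46 FPKM in double-null, 3.22 and 3.17 FPKM in STAT6-null, 3.95 and 3.92 FPKM in T-bet-null and 2.69 and 2.58 FPKM in WT libraries. The genotypes did not overlap, but the double-null and STAT6-null levels were close and their difference did not pass the test reported below. The spread of the 4 genotype means was 0.44 on the log2(FPKM + 1) scale for Rad50, against 3.81 for Il4, 2.57 for Il13 and 3.37 for Il5. Approximately 283 to 397 fragments per library stood behind these values, a counting error of 5% to 5.9%.

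**Figure D1:**
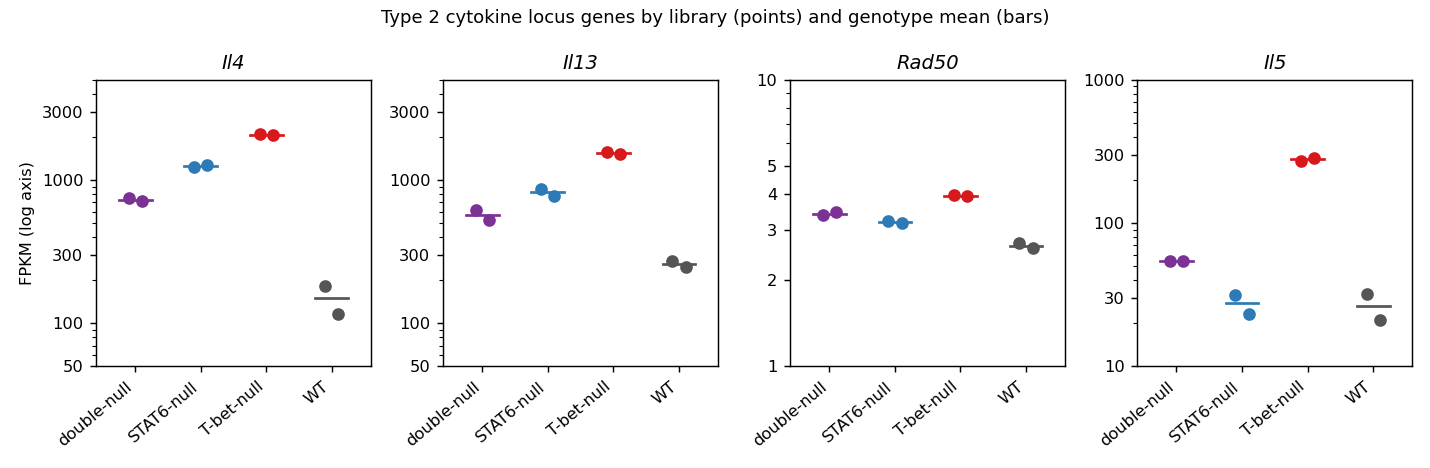
FPKM (log axis, with its own range in each panel) of Il4, Il13, Rad50 and Il5 in double-null, STAT6-null, T-bet-null and WT cells; points are the 2 libraries of a genotype and bars their mean. Il4 and Il13 are highest in T-bet-null cells, then STAT6-null, double-null and WT cells, whereas the Il5 points of STAT6-null and WT cells share one range, 21.0 to 32.1 FPKM.

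What the loss of T-bet did to the locus was first read with STAT6 present, in T-bet-null against WT cells. Il4 averaged 2064 ± 21.3 FPKM in T-bet-null and 149.9 ± 46.7 FPKM in WT cells (SD, n = 2 each here and below), a ratio of 13.8. Il5 averaged 279 ± 9.55 FPKM in T-bet-null and 26.5 ± 7.84 FPKM in WT cells, a ratio of 10.5, and Il13 averaged 1539 ± 24.5 FPKM in T-bet-null and 259 ± 16.3 FPKM in WT cells, a ratio of 5.94. Rad50 averaged 3.93 ± 0.0213 FPKM in T-bet-null and 2.64 ± 0.0726 FPKM in WT cells, a ratio of 1.49. In limma fitted across all 10281 genes tested, the log2 fold changes of FPKM + 1 were 3.81 for Il4 (SE 0.16, adjusted p = 2.97e-07), 3.37 for Il5 (SE 0.18, adjusted p = 9.04e-07), 2.57 for Il13 (SE 0.091, adjusted p = 1.71e-07) and 0.44 for Rad50 (SE 0.067, adjusted p = 0.000348). All 4 genes therefore rose, where 34.2% of all genes tested were called higher and 36.3% lower. On this scale the change of Rad50, a low gene, depends on the constant added to FPKM and was 0.56 with 0.1 and 0.23 with 5 in place of 1, past the threshold each time.

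With STAT6 absent, the loss of T-bet did not move the 3 cytokine genes in one direction. In double-null against STAT6-null cells, Il4 averaged 729 ± 25.3 FPKM in double-null and 1257 ± 26.2 FPKM in STAT6-null cells, a log2 fold change of -0.79 (limma, SE 0.16, adjusted p = 0.0112). Il13 averaged 572 ± 66.3 FPKM in double-null and 819.8 ± 63.7 FPKM in STAT6-null cells, a log2 fold change of -0.52 (adjusted p = 0.00533). Il5 was higher instead, at 54.3 ± 0.399 FPKM in double-null and 27.6 ± 5.89 FPKM in STAT6-null cells, a ratio of 1.97 and a log2 fold change of 0.97 (adjusted p = 0.00694). Rad50 gave 3.41 ± 0.0661 FPKM in double-null and 3.20 ± 0.0341 FPKM in STAT6-null cells, a log2 difference of 0.07 with a 95% interval of -0.08 to 0.22 (adjusted p = 0.501). Thus 2 members were lower and 1 was higher, where 8.63% of all genes were called lower and 11.3% higher. The directions held when any 1 library was left out, but the limma calls did not all hold. Il4 gave adjusted p = 0.0564 without double-null replicate 2 (log2 -0.75), 0.0632 without STAT6-null replicate 1 (-0.81) and 0.0647 without STAT6-null replicate 2 (-0.76), Il13 gave 0.0537 without STAT6-null replicate 1 (-0.44), and Il5 gave 0.0509 without STAT6-null replicate 2 (0.76).

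The loss of STAT6 with T-bet present, in STAT6-null against WT cells, separated Il5 from Il4 and Il13. The mean Il4 level in STAT6-null cells was 8.38 times the WT mean (log2 3.09, limma adjusted p = 6.72e-07) and that of Il13 was 3.16 times the WT mean (log2 1.66, adjusted p = 8.16e-07). For Il5 the ratio was 1.04, with a log2 difference of 0.07, a 95% interval of -0.34 to 0.48 and adjusted p = 0.751. This interval lies below the fold changes of both Il4 and Il13. Rad50 rose by 0.21 on the log2 scale (ratio 1.21, adjusted p = 0.0202). The count was 3 of 4 genes higher, where 34.9% of all genes were called higher and 36.1% lower. Without STAT6-null replicate 1 the Il5 difference was -0.14, and without WT replicate 2 it was -0.23, neither past the threshold, and the Rad50 call was lost without STAT6-null replicate 1 (adjusted p = 0.0789), STAT6-null replicate 2 (0.0617) or WT replicate 2 (0.0787).

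With T-bet absent, the loss of STAT6 lowered all 3 cytokine genes, and Il5 by the widest margin. In double-null against T-bet-null cells, Il5 fell to 0.195 of the T-bet-null mean (log2 -2.34, limma adjusted p = 5.85e-05). Il4 fell to 0.353 of the T-bet-null mean (log2 -1.50, adjusted p = 0.000324) and Il13 to 0.372 (log2 -1.43, adjusted p = 2.46e-05). Rad50 gave a log2 difference of -0.16 with a 95% interval of -0.31 to -0.01, which did not pass after adjustment over all genes (adjusted p = 0.0943). Hence 3 of 4 genes were lower, where 16.2% of all genes were called lower and 16.4% higher.

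With both factors absent, each of the 4 transcripts was still higher than in WT cells. Il4 was 4.86 times the WT mean in double-null cells (log2 2.31, limma adjusted p = 2.38e-06), Il13 2.21 times (log2 1.14, adjusted p = 5.04e-06), Il5 2.05 times (log2 1.04, adjusted p = 0.000685) and Rad50 1.29 times (log2 0.28, adjusted p = 0.00454). All 4 genes were higher, where 36.3% of all genes were called higher and 36.7% lower.

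Set directly against each other, the single mutants differed at all 4 genes, with STAT6-null cells lower. Il5 in STAT6-null cells was 0.0989 of the T-bet-null mean (log2 -3.31, limma adjusted p = 5.00e-06), Il13 was 0.533 (log2 -0.91, adjusted p = 0.000161) and Il4 was 0.609 (log2 -0.72, adjusted p = 0.0120). Rad50 was 0.813 of the T-bet-null mean (log2 -0.23, adjusted p = 0.0320). In this comparison 14.9% of all genes were called lower and 12.3% higher. The Il4 and Rad50 calls were lost whenever 1 of the 4 libraries compared was left out, with Il4 at adjusted p = 0.0672 without STAT6-null replicate 1, 0.0567 without STAT6-null replicate 2, 0.0589 without T-bet-null replicate 1 and 0.0570 without T-bet-null replicate 2, and Rad50 at 0.103, 0.125, 0.134 and 0.127 in turn, while its log2 difference stayed between -0.24 and -0.22.

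Whether the effect of T-bet loss depended on STAT6 was tested by the interaction, the log2 change in double-null against STAT6-null cells minus that in T-bet-null against WT cells. It was -4.59 for Il4 (limma, SE 0.23, adjusted p = 4.86e-06), -3.09 for Il13 (SE 0.13, adjusted p = 3.89e-06), -2.41 for Il5 (SE 0.25, adjusted p = 0.000101) and -0.37 for Rad50 (adjusted p = 0.00917). For Il4 and Il13 the effect of T-bet loss was of opposite sign on the 2 backgrounds, whereas for Il5 it was positive on both and smaller without STAT6. All 4 terms were negative, where 27.7% of all genes had a negative and 29.6% a positive term past the threshold. The WT libraries enter this term and each comparison with WT. An offset shared by both WT libraries would enter them too and was not tested. The differences among mutants do not use the WT levels, but the spread of the WT pair enters the shared error of the fit and so their p-values. In a fit of the 6 mutant libraries alone all 4 genes kept their calls, with Il4 in double-null against STAT6-null cells at adjusted p = 0.000156, against 0.0112 with the WT libraries in the fit.

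**Figure D2:**
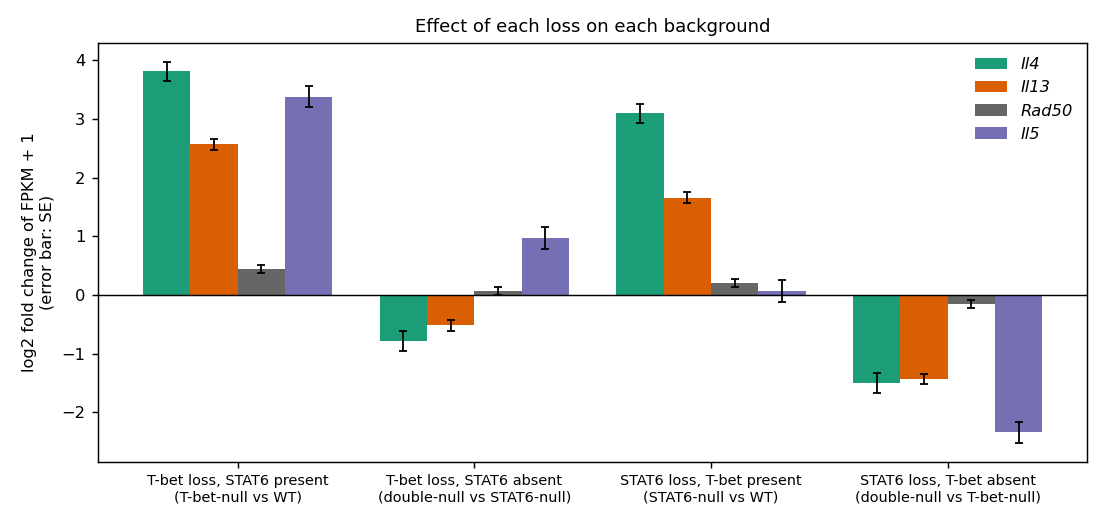
Log2 fold change of FPKM + 1 (bars, with SE of the limma fit) for Il4, Il13, Rad50 and Il5, for the loss of T-bet and the loss of STAT6 on each background. With STAT6 absent, T-bet loss gave -0.79 for Il4 and -0.52 for Il13 but 0.97 for Il5, and with T-bet present, STAT6 loss gave 3.09 for Il4 and 1.66 for Il13 but 0.07 for Il5.

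The ratio of cytokine transcripts within a library does not depend on how that library was scaled. Il5/Il4 was 0.0724 and 0.0768 in double-null, 0.0256 and 0.0183 in STAT6-null, 0.131 and 0.139 in T-bet-null and 0.175 and 0.1796 in WT libraries. All 4 libraries lacking STAT6 lay below all 4 carrying it, by 1.95 on the log2 scale (exact permutation test, two-sided, p = 0.0286, the smallest that 4 against 4 allows; adjusted p = 0.171 over 6 ratio tests). The libraries lacking and carrying T-bet overlapped in this ratio (log2 difference 0.69, exact p = 0.486). Each side of the 6 ratio tests pools libraries of different genotypes, and the test treats all libraries as exchangeable. The exact p-values therefore do not measure the spread between genotypes, and libraries of the same genotype may be technical repeats.

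Il5/Il13 was 0.0873 and 0.104 in double-null, 0.0367 and 0.0302 in STAT6-null, 0.175 and 0.188 in T-bet-null and 0.119 and 0.0848 in WT libraries. Its log2 difference was -1.26 between libraries lacking and carrying STAT6 (exact permutation p = 0.0857, adjusted p = 0.214) and 1.18 between those lacking and carrying T-bet (exact p = 0.114, adjusted p = 0.214). The STAT6-null pair was lowest in both ratios, and the T-bet-null pair was highest in Il5/Il13.

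Il13/Il4 was 0.829 and 0.739 in double-null, 0.699 and 0.608 in STAT6-null, 0.749 and 0.743 in T-bet-null and 1.48 and 2.12 in WT libraries. The 3 mutant genotypes occupied 1 narrow range and the WT libraries lay above it, so the split was between WT and mutants rather than by T-bet or STAT6. The exact p was 0.143 by STAT6 (log2 -0.69) and 0.429 by T-bet (log2 -0.49), and none of the 6 ratio tests passed after adjustment. The adjustment itself limits this, since the smallest exact p, 0.0286, becomes 0.171 where no other of the 6 tests comes near it. As a share of the summed FPKM of the 3 cytokine genes, Il5 made up 3.81% and 4.23% in double-null, 1.49% and 1.13% in STAT6-null, 6.96% and 7.41% in T-bet-null and 6.61% and 5.45% in WT libraries. A pair of genotypes, with 2 libraries each, cannot go below an exact p of 0.333, so single pairs were not tested on the ratios.

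**Figure D3:**
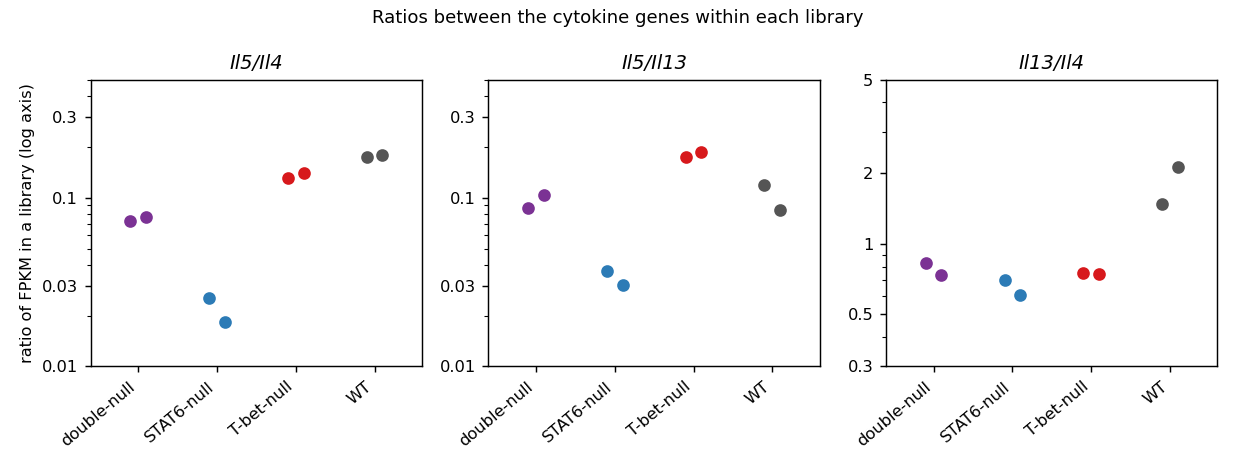
Ratios of FPKM within a library (log axis, with its own range in each panel) for Il5/Il4, Il5/Il13 and Il13/Il4, with 1 point per library. In Il5/Il4 the 4 double-null and STAT6-null points, 0.0183 to 0.0768, lie below the 4 T-bet-null and WT points, 0.131 to 0.1796, and in Il13/Il4 the 6 mutant points lie below the WT points.

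Genes whose profile over the 8 libraries was most like that of each member were ranked by Pearson r of log2(FPKM + 1). The ranking is a description over libraries that share their genotypes. The locus members themselves were left out of it, so how closely they followed each other was not ranked. Among 1701 genes whose genotype means spanned at least 1 on the log2 scale, those most like Il4 were Rragd, a Rag GTPase of nutrient sensing (r = 0.993), Spata5l1 (0.988), the phosphatase gene Cdc14a (0.986), the desmoplakin gene Dsp (0.978) and Gzf1 (0.975). Those most like Il13 were Slc5a3, which encodes a myo-inositol transporter (0.987), the small GTPase gene Rhoq (0.976), Dsp again (0.976), the retroviral restriction gene Fv1 (0.974) and Mapkbp1 (0.969). Dsp was the only gene among the 5 nearest of more than 1 member. The levels of these genes were far lower, with Rragd at 4.89 and 5.19 FPKM in double-null, 6.49 and 6.66 FPKM in STAT6-null, 7.36 and 7.86 FPKM in T-bet-null and 2.44 and 2.33 FPKM in WT libraries.

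The genes nearest Il5 were others. They were Nrn1, which encodes the surface protein neuritin (r = 0.977), the microtubule-binding gene Eml1 (0.971), Pparg, a nuclear receptor known to support Th2 effector function in mice (0.961), Fam110c (0.955) and Scx (0.953). Nrn1 stood at 355 and 337 FPKM in double-null, 282 and 281 FPKM in STAT6-null, 561 and 562 FPKM in T-bet-null and 259 and 287 FPKM in WT libraries, so that, like Il5, its STAT6-null values lay within the range of the WT values. In limma, Nrn1 was higher in T-bet-null than in WT cells by 1.04 and higher in double-null than in STAT6-null cells by 0.30 on the log2 scale (adjusted p = 0.0116). Pparg was low, at 0.265 and 0.378 FPKM in double-null, 0.243 and 0.110 FPKM in STAT6-null, 1.41 and 1.93 FPKM in T-bet-null and 0.332 and 0.227 FPKM in WT libraries. Pparg and Scx reached 1 FPKM only in the T-bet-null libraries, and Eml1 there and in double-null replicate 2. These genes thus passed the filter through the genotype where Il5 was highest, so their likeness to Il5 is partly set by the filter.

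For Rad50, ranked among 10277 genes with no limit on span, the nearest were Ubtf (r = 0.996), Nfx1 (0.993), Mre11a (0.992), AI414108 (0.991) and R3hdm1 (0.990). Mre11a encodes the nuclease that binds RAD50 in the MRE11 complex. It stood at 6.27 and 6.63 FPKM in double-null, 6.11 and 5.94 FPKM in STAT6-null, 7.23 and 7.34 FPKM in T-bet-null and 4.92 and 4.998 FPKM in WT libraries. Its log2 changes were 0.32 in double-null, 0.24 in STAT6-null and 0.48 in T-bet-null against WT cells, close to the 0.28, 0.21 and 0.44 of Rad50. Nbn, which encodes the remaining subunit of the complex, moved the other way, with log2 changes of -0.44 in double-null, -0.61 in STAT6-null and -0.37 in T-bet-null against WT cells. Of 17 tested genes of break repair (20 listed), 5 were higher and 7 lower in double-null, 4 higher and 10 lower in STAT6-null and 5 higher and 9 lower in T-bet-null against WT cells, with Atm, the kinase activated by the complex, at -1.12, -1.15 and -0.83 in that order. Of all genes, 36.3% were called higher and 36.7% lower in double-null, 34.9% and 36.1% in STAT6-null and 34.2% and 36.3% in T-bet-null cells.

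Regulators of the locus moved in both directions, as did the tested genes as a whole. Against WT, 36.3% of all genes were called higher and 36.7% lower in double-null, 34.9% and 36.1% in STAT6-null and 34.2% and 36.3% in T-bet-null. Of 19 tested activators (20 listed), 9 were higher and 8 lower in double-null, 8 higher and 8 lower in STAT6-null and 8 higher and 5 lower in T-bet-null against WT cells, with median log2 changes of 0.0073, -0.0065 and 0.16 where the median of all genes was -0.0047, -0.0087 and -0.016. Gata3, the central activator in Th2 cells, changed by -0.31 in STAT6-null and 0.88 in T-bet-null against WT cells, while in double-null cells it gave 0.0073 and was not called. Gfi1, which supports Th2 cell expansion, changed by -0.84 in double-null, -0.98 in STAT6-null and 0.89 in T-bet-null against WT cells. Gata3 and Gfi1 were thus higher than WT in the genotype with the highest levels of all 3 cytokines, and lower than WT in STAT6-null cells, where Il4 and Il13 were above WT and Il5 overlapped with WT.

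Maf, Notch1 and Batf had their highest levels in the genotypes lacking STAT6. Maf, a factor that acts on the Il4 promoter, rose by 1.00 in double-null and 1.52 in STAT6-null cells against WT on the log2 scale, and gave 0.09 in T-bet-null cells, where it was not called. Notch1, a receptor that can induce Il4, rose by 0.49 in double-null and 1.00 in STAT6-null cells against WT, and gave 0.12 in T-bet-null cells, not called. Both were lower in double-null than in STAT6-null cells, Maf by 0.52 and Notch1 by 0.51, as were Il4 and Il13, whereas Gata3 was higher there by 0.32, as was Il5. Batf rose by 1.59 in double-null, 1.64 in STAT6-null and 0.83 in T-bet-null cells against WT, and Stat5a rose by 1.12, 1.15 and 1.05 in the same order. In double-null against STAT6-null cells, 2 of the 19 activators were higher (Gata3 and Myb), 3 were lower (Maf, Notch1 and Rbpj) and 14 were not called. There, 11.3% of all genes were called higher and 8.63% lower. Whether any of these activators bears on the cytokine genes in these cells was not tested.

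Of 13 tested restrainers of the locus (15 listed), 4 were higher and 6 lower in double-null, 5 higher and 6 lower in STAT6-null and 3 higher and 5 lower in T-bet-null against WT cells. The shares of all genes called higher and lower were 36.3% and 36.7%, 34.9% and 36.1%, and 34.2% and 36.3% in the same order. Runx3, which silences Il4 together with T-bet in Th1 cells, gave 11.4 and 12.9 FPKM in double-null, 18.2 and 16.3 FPKM in STAT6-null, 9.97 and 8.56 FPKM in T-bet-null and 19.96 and 20.7 FPKM in WT libraries, and was lower than WT in all 3 mutants by the limma test. Bcl6, a repressor that directs follicular helper cells, was also lower in all 3, at 13.4 and 14.7 FPKM in double-null, 12.3 and 12.3 FPKM in STAT6-null, 14.7 and 14.1 FPKM in T-bet-null and 32.7 and 34.1 FPKM in WT libraries. Receptor and signalling genes of the cytokines (10 tested of 15 listed) were 2 higher and 6 lower in double-null, 2 higher and 5 lower in STAT6-null and 1 higher and 7 lower in T-bet-null against WT cells. These counts are to be read beside the same shares of all genes. Il4ra, which encodes the shared receptor chain of IL-4 and IL-13, was lower than WT in double-null cells (log2 -0.30) and was not called in STAT6-null (-0.040) or T-bet-null cells (-0.017). Jak2, which carries the IL-5 receptor signal, was higher in all 3 mutants by 0.98 to 1.12. Of the IL-5 receptor genes themselves, Il5ra did not exceed 0.701 FPKM in any library and was not tested, and Csf2rb had no value.

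Genes known from IL-5-rich, pathogenic Th2 cells were read beside Il5. Of 10 tested (13 listed), 6 were higher and 3 lower in double-null, 3 higher and 3 lower in STAT6-null and 5 higher and 3 lower in T-bet-null against WT cells. Of all genes, 36.3% and 36.7%, 34.9% and 36.1%, and 34.2% and 36.3% were called higher and lower in that order. The genes counted higher in T-bet-null cells include Pparg, which reached 1 FPKM only there and entered the test through that group. In double-null against STAT6-null cells, 6 were higher and 2 lower, where 11.3% of all genes were called higher and 8.63% lower. The median there was 0.44, and that of all genes was 0.01. Il1rl1, which encodes the IL-33 receptor, stood at 23.7 and 24.0 FPKM in double-null, 17.2 and 16.8 FPKM in STAT6-null, 29.1 and 29.6 FPKM in T-bet-null and 17.2 and 18.0 FPKM in WT libraries. As for Il5, the T-bet-null values were highest and the double-null values next. The STAT6-null values lay just below those of WT without overlap, and that difference was not called (-0.05). Cysltr1, a leukotriene receptor gene, rose by 2.65 in double-null, 1.36 in STAT6-null and 2.52 in T-bet-null against WT cells, and Areg, which encodes amphiregulin, rose in double-null cells (1.40) but gave 0.12 in STAT6-null and 0.06 in T-bet-null cells, not called. The 3 genes lower than WT in all 3 mutants were Il17rb, which encodes a subunit of the IL-25 receptor, the chemokine receptor gene Ccr8 and Il9r, which encodes the IL-9 receptor. Il17rb gave log2 changes of -1.75 in double-null, -2.16 in STAT6-null and -1.06 in T-bet-null cells against WT. Ccr8 gave -2.20, -1.33 and -0.85 and Il9r gave -0.87, -1.43 and -0.70 in the same order, so all 3 were lower than WT also in T-bet-null cells, where Il5 was highest.

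**Figure D4:**
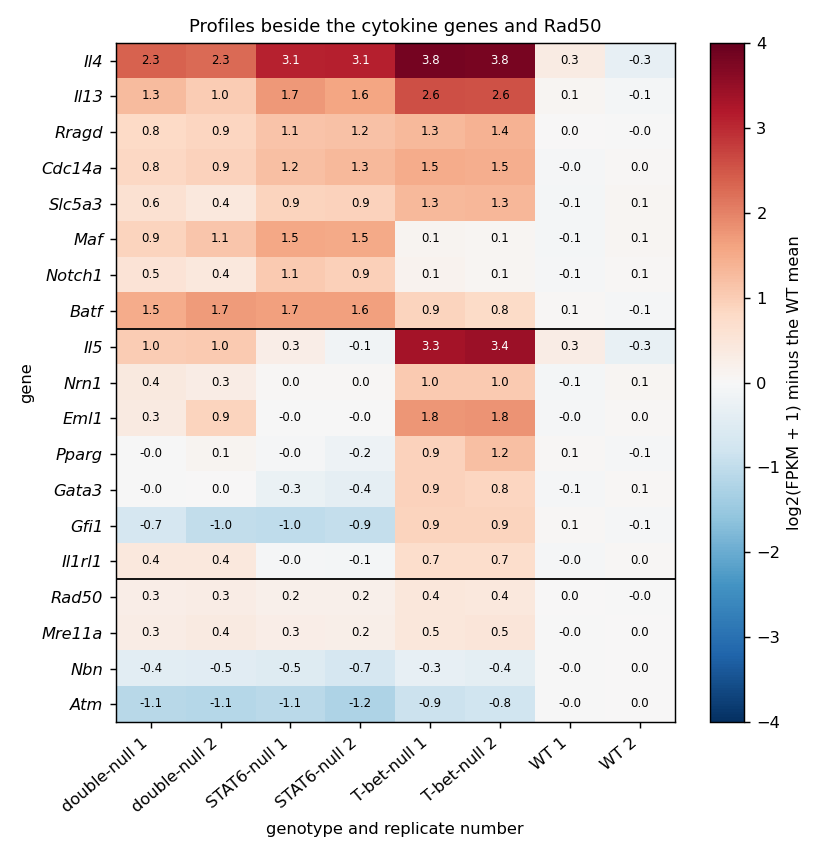
Log2(FPKM + 1) minus the WT mean in each library (columns) for Il4 and Il13 with genes most like them and activators, for Il5 with genes most like it and activators or Th2 genes, and for Rad50 with break repair genes (blocks from top to bottom). Maf gave 1.52 and Gata3 gave -0.31 in STAT6-null against WT cells, and Il5 and Nrn1 are near 0 there. The genes were chosen by hand for display, and a place in a block is not a result of grouping. Maf and Notch1 were not called in T-bet-null against WT cells, where Il4 rose most. Il17rb, Ccr8 and Il9r, lower than WT in all mutants, are not shown.

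Beyond the 4 genes, 11 genes within 1 Mb of Rad50 were tested, and like the tested genes as a whole they moved in both directions. In double-null against WT cells 5 were higher and 5 lower, in STAT6-null against WT cells 5 higher and 3 lower, and in T-bet-null against WT cells 5 higher and 5 lower. All genes called higher and lower made up 36.3% and 36.7%, 34.9% and 36.1%, and 34.2% and 36.3% in this order. Kif3a, a kinesin gene next to Il4, was not called in double-null (0.10) or STAT6-null cells (0.09) and gave 0.48 in T-bet-null cells against WT. Kif3a stood at 1.54 and 1.03 FPKM in T-bet-null and 0.742 and 0.512 FPKM in WT libraries, and below 1 FPKM in all others. It thus entered the test, and the count of higher genes, only through the group where it was highest. Irf1, the interferon-response factor next to Il5, stood at 53.2 and 53.0 FPKM in double-null, 95.01 and 77.9 FPKM in STAT6-null, 31.6 and 30.7 FPKM in T-bet-null and 83.2 and 68.9 FPKM in WT libraries. It was thus lowest in the genotype in which Il5 was highest, at -1.25 against WT in T-bet-null cells.

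Farther along the chromosome lie Csf2 and Il3, a pair of cytokine genes that activated T cells also express. Il3 stood at 71.8 and 38.7 FPKM in double-null, 125 and 133 FPKM in STAT6-null, 81.3 and 79.6 FPKM in T-bet-null and 24.6 and 19.7 FPKM in WT libraries, higher than WT in all 3 mutants and highest in STAT6-null cells. Csf2, which encodes GM-CSF, stood at 22.7 and 18.7 FPKM in double-null, 104 and 89.4 FPKM in STAT6-null, 23.4 and 23.5 FPKM in T-bet-null and 56.2 and 46.2 FPKM in WT libraries. Against WT it fell in double-null (-1.27) and T-bet-null cells (-1.09) and rose in STAT6-null cells (0.91), which is not the order of any of the 4 locus genes. Of 14 tested cytokine genes of other helper programmes (16 listed), 10 were higher and 3 lower in double-null, 12 higher and 1 lower in STAT6-null and 8 higher and 5 lower in T-bet-null against WT cells. The shares of all genes called higher and lower were 36.3% and 36.7%, 34.9% and 36.1%, and 34.2% and 36.3% in that order.

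**Figure D5:**
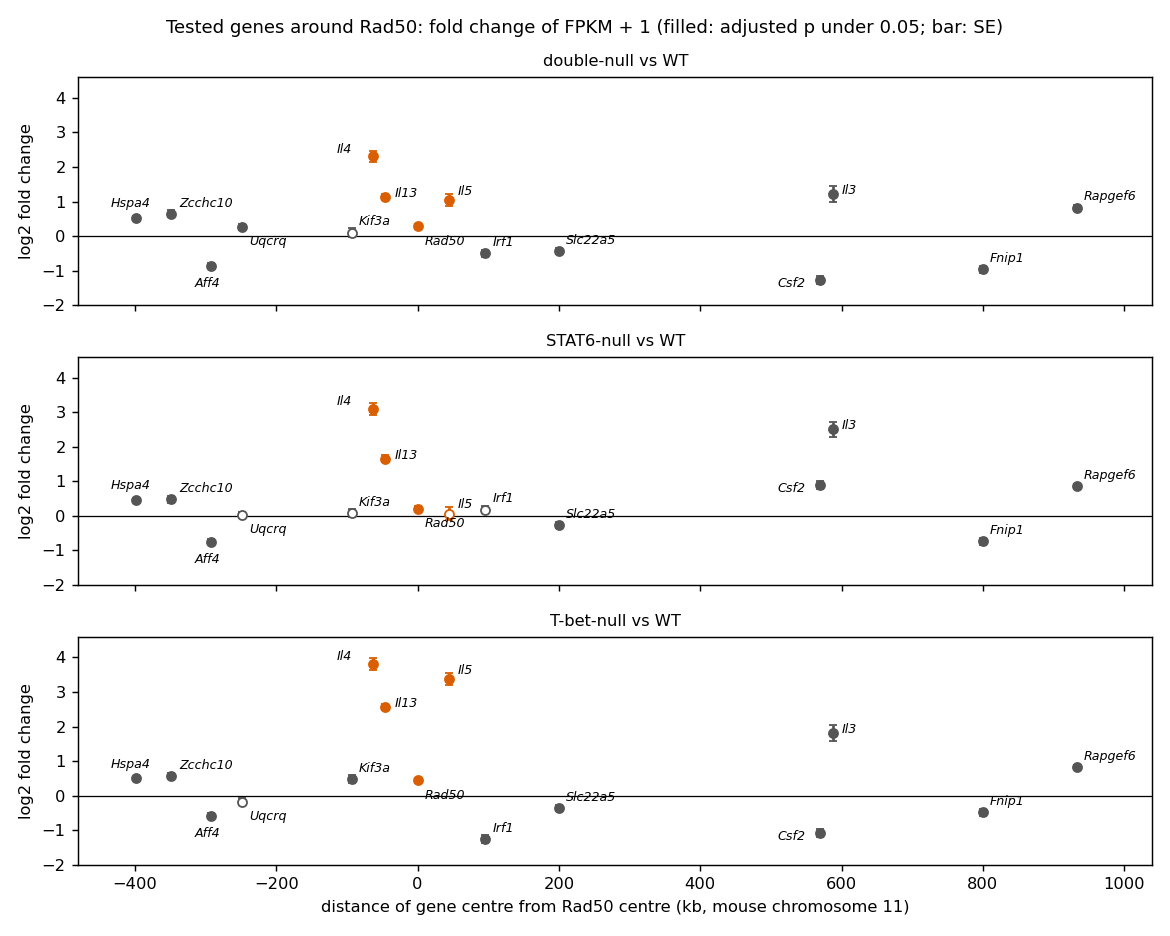
Log2 fold change of FPKM + 1 against WT (points, with SE) for the 4 locus genes (orange) and the 11 tested genes within 1 Mb (grey), by distance of the gene centre from that of Rad50, in double-null, STAT6-null and T-bet-null cells; open points did not pass. The 11 others lie on both sides of 0 in each panel, and Rad50, between Il13 and Il5, is at 0.28, 0.21 and 0.44.

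Mast cells, basophils and eosinophils can also make Il4 and Il13, so their markers were read in the same libraries. Of 12 mast cell and basophil markers, 3 had values (Kit, Cd200r3 and Hdc), which summed to 59.1 and 65.0 FPKM in double-null, 34.5 and 35.4 FPKM in STAT6-null, 10.6 and 10.5 FPKM in T-bet-null and 19.92 and 20.004 FPKM in WT libraries. Nearly all of this was Kit, which was lowest in the T-bet-null libraries, where Il4 and Il13 were highest. Cd200r3 and Hdc did not exceed 1.41 FPKM in any library. For Fcer1a, Mcpt8, Cpa3, Ms4a2 and 5 more of the list no value was read, since the table holds only genes with at least 0.1 FPKM in all 8 libraries. Of 5 eosinophil markers only Ccr3 had values, at 2.36 and 3.26 FPKM in double-null, 5.25 and 5.45 FPKM in STAT6-null, 2.64 and 2.92 FPKM in T-bet-null and 1.06 and 1.06 FPKM in WT libraries. Markers of innate-like lymphocytes (4 of 5 listed) summed to 6.04 to 7.86 FPKM in mutant libraries and to 8.90 and 7.84 FPKM in WT libraries. The part of other cells in the cytokine levels was not tested.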

How the data were processed

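The study deposited 1 table of FPKM values, which were analysed as given. The submitters' processing notes name Cufflinks and build mm10. The sources used here give no aligner, version or strandedness, so reads of overlapping antisense transcripts cannot be told apart. The deposited table has 11906 lines, all at 0.1 FPKM or more in all 8 libraries. Where a symbol had more than 1 line (43 symbols), the one of highest mean was kept, which set aside 65 lines.

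The 4 genes and the 6 gene lists were chosen with earlier results of these data known. Tests used limma (version 3.58.1, R version 4.3.3) fitted to log2(FPKM + 1) of 10281 genes with at least 1 FPKM in at least 2 libraries, with all 8 libraries in 1 fit, 1 mean for each genotype (4 residual degrees of freedom), empirical Bayes moderation with an intensity trend and Benjamini-Hochberg adjustment within each of 7 comparisons. Calls were made below an adjusted p of 0.05. Fold changes on this scale understate the change of low genes. Ratios between members were tested by exact permutation over libraries (NumPy 2.4.6). The limma fit was tested on simulated data. The permutation test was checked against SciPy 1.17.1 on fixed values with a known answer.

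The table gives no depth. It was estimated from low values: of 503 genes under 0.5 FPKM, 165 lay on whole multiples in all 8 libraries (tolerance 0.01), and 46 genes with 1 transcript gave 20450000 fragments for the first WT library (quartiles 17810000 and 21460000). Since most of the low genes were off the whole multiples, no count model was fitted. Fragments per gene are approximate, and errors from them cover counting only. Named genes are the 4 members, the targeted genes, the 5 most alike genes per member, tested genes within 1 Mb of Rad50 and members of the lists. Same-numbered libraries of different genotypes did not deviate together. Alternatives covered the added constant, the filter, scaling, the libraries fitted, the trend, a replicate block and leaving out each library.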

Additional observations from a re-analysis of the deposited data

Results flagged for a closer look

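The interaction of T-bet loss with the presence of STAT6 passed the threshold at all 4 genes (limma, adjusted over all genes). The WT pair, which stood apart from all mutants, enters it, and an offset shared by both WT libraries was not tested. The term, the log2 change in double-null against STAT6-null cells minus that in T-bet-null against WT cells, was -4.59 for Il4 (adjusted p = 4.86e-06), -3.09 for Il13 (3.89e-06), -2.41 for Il5 (0.000101) and -0.37 for Rad50 (0.00917), where 27.7% of all genes had a negative and 29.6% a positive term past the threshold. For Il4 and Il13 both libraries of each genotype show the change of sign between the backgrounds. With 2 libraries per genotype, no genotype was large enough to test a single library as standing apart from its group.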

How the results depend on the processing

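Of the results for single members over all alternatives, 457 kept their direction and their side of the threshold, 17 lost the call and 3 changed sign. The ratio results were past the threshold in none of 60 alternatives and kept their direction, but their size depended on single libraries. With the replicate number as a block, no ratio could pass even before adjustment, so the lack of passing does not show stability. Leaving out 1 library moved the log2 difference between libraries lacking and carrying T-bet in Il5/Il4 between 0.11 (without STAT6-null replicate 2) and 1.21 (without WT replicate 2), in Il5/Il13 between 0.87 and 1.53 and in Il13/Il4 between -0.76 and -0.16. That between libraries lacking and carrying STAT6 ranged from -2.26 to -1.57 in Il5/Il4, -1.55 to -0.96 in Il5/Il13 and -0.90 to -0.39 in Il13/Il4. The Il5 difference between STAT6-null and WT cells, not past the threshold in any alternative, turned to -0.026 with quantile normalization, -0.14 without STAT6-null replicate 1 and -0.23 without WT replicate 2. Rad50 in STAT6-null against T-bet-null cells gave -0.18 with quantile normalization (adjusted p = 0.0673). The cause was not tested. Other lost calls came from leaving out 1 library, which leaves a genotype with a single library assumed to vary like the others. Over these fits the log2 change ranged from -0.82 to -0.75 for Il4, -0.64 to -0.40 for Il13 and 0.76 to 1.18 for Il5 in double-null against STAT6-null cells, from -0.74 to -0.69 for Il4 and -0.24 to -0.22 for Rad50 in STAT6-null against T-bet-null cells, and from 0.19 to 0.23 for Rad50 and -0.23 to 0.36 for Il5 in STAT6-null against WT cells. The number of all genes called ranged from 1642 to 3317 in double-null against T-bet-null cells (3351 with all libraries), with lower counts without double-null replicate 2 (1977) or T-bet-null replicate 1 (1885) or 2 (1642). It ranged from 846 to 2057 in double-null against STAT6-null cells (2044 with all), with 1236 without double-null replicate 2, 846 without STAT6-null replicate 1 and 1038 without STAT6-null replicate 2. In STAT6-null against T-bet-null cells it ranged from 1461 to 3089 (2799 with all), with 1656 and 1650 without STAT6-null replicate 1 or 2 and 1607 and 1461 without T-bet-null replicate 1 or 2. The listed genes called in double-null against STAT6-null cells, 34 of 83, ranged from 21, without STAT6-null replicate 2, to 36. Rad50 has no value under the filter of 5 FPKM. The scaling alternatives moved the median of all genes by less than 0.1 and the split of higher against lower calls by less than 10 percentage points.

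Same replicate numbers in different genotypes did not pair the libraries: the correlation of their deviations from the genotype means was -0.09 to 0.09 over the 6 pairs of genotypes. A fit with the replicate number as a block changed no call of the 4 genes and called 7151 genes in T-bet-null against WT cells, where the fit without it called 7255. In Il5 of double-null against STAT6-null cells, the block gave a log2 change of 0.97 (adjusted p = 0.00621).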
